A study of Homo sapiens with 9 samples.

Results

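The YAP-TEAD arm of the Hippo pathway was followed through 10 genes in the MDA-MB-231 cell line, which was established from a human breast adenocarcinoma. They are CCN1, CCN2, ANKRD1, AMOTL2, AXL, LATS2, TEAD1, YAP1, WWTR1 and AJUBA. The genes were chosen by name, with earlier results of these data known. All 10 were found among the 24344 genes of the count table by their Ensembl identifiers. The cells received Compound Kushen Injection (CKI, made from the herbs Kushen and Baituling) at 2.0 mg/mL for 48 h, or an injection of Kushen alone or Baituling alone at the matching ratio. Each injection had 3 RNA-seq libraries, all cells grew in the same serum-containing medium, and untreated libraries were not analysed here. The results concern this single line.

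Hippo signalling is a kinase cascade in which the LATS kinases phosphorylate the coactivators YAP (gene YAP1) and TAZ (gene WWTR1) and keep them out of the nucleus. When the cascade is off, YAP and TAZ enter the nucleus, bind the DNA-binding TEAD factors and raise the transcription of genes such as CCN1, CCN2 and ANKRD1. LATS2 and AMOTL2 are both targets and inhibitors of YAP, which closes a feedback loop. Control acts largely on the location and stability of the proteins, which RNA-seq does not measure. MDA-MB-231 is known for a defective NF2 gene, an upstream activator of the cascade, and for high YAP activity.

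TEAD factors recognise the letters GGAATG and promoters of the 10 genes were searched for them on both strands. RefSeq promoters (GRCh38.p14) were at hand for 8 of the 10 genes, those of CCN1 and TEAD1 not being used here. The 250 bases before the transcription start are shown for the 3 genes that hold the motif. Capitals mark GGAATG on either strand and, in ANKRD1, also the AP-1 motif TGANTCA. The windows lie at chr6:131951373-131951622 (CCN2, minus strand), chr10:90921088-90921337 (ANKRD1, minus strand) and chr11:102110197-102110446 (YAP1, plus strand).
CCN2: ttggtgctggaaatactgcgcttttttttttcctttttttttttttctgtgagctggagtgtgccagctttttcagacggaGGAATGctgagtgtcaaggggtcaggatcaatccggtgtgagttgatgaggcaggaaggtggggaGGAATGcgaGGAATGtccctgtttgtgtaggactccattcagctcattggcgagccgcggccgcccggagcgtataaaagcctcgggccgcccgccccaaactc
ANKRD1: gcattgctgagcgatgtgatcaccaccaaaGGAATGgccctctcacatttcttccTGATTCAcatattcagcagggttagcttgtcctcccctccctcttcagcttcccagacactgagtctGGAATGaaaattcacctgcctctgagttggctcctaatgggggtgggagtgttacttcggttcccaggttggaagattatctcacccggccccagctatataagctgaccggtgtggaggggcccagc
YAP1: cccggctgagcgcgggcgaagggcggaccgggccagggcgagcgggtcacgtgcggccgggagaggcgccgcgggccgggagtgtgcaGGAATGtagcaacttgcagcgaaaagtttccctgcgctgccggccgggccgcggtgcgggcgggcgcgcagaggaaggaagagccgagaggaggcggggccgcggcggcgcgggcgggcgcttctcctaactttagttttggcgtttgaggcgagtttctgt
CCN2, which encodes a secreted matricellular protein, holds 3 copies, at 169, 104 and 95 bases before the start. ANKRD1 holds 2 copies, 220 and 128 bases before the start, and an AP-1 motif 195 bases before it. YAP1 holds a single copy 162 bases before the start. The motif was present in 3 of the 8 windows (37.5%), against 11.9% of all 35116 windows of the same length. TGANTCA was present in 1 of the 8, against 6.57% of all windows, and the SRF-binding CArG box in 0 of the 8, against 1.16%. No match overlapped another. These matches describe letters and no binding was measured.

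The libraries held 20144628 to 23782071 counts, and the 10 genes had between 944 (LATS2) and 57503 (CCN1) counts per library, so that counting error was small for each of them. Levels are given as CPM, the share of a library's counts after TMM scaling of the library sizes. Mesenchymal genes that mark the line, VIM, CD44, MSN and CAV1, lay at 169 CPM or above in every group mean. ESR1, PGR and the leukocyte gene PTPRC had at most 9 counts per library, and CDH1 11 to 51 counts. VIM itself averaged 2070 CPM in Baituling, 584 in Kushen and 350.5 in CKI, and its part in the results was not tested. Differences were tested with edgeR's quasi-likelihood test over 14195 genes, with Benjamini-Hochberg adjustment over all of them. A gene was called past both thresholds with an adjusted p under 0.05 and a log2 fold change of more than 1 in either direction. In bulk RNA, fewer cells of a kind and less RNA per cell cannot be told apart.

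The plot of expression by library shows the 3 treatments for each gene. CCN1 was the most abundant of the 10 genes in each treatment, and AXL had the largest fold difference between treatments.

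**Figure D1:**
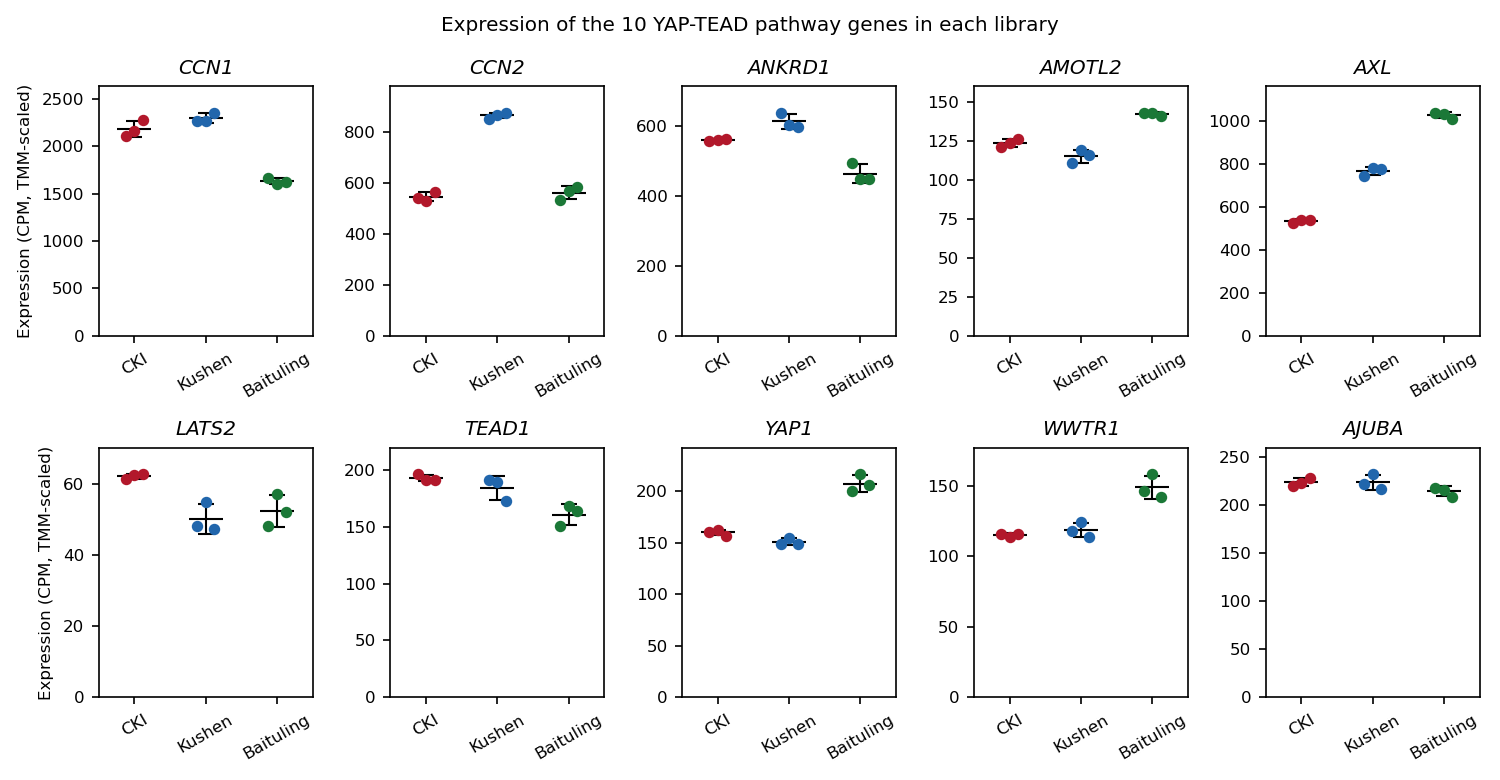
Expression in CPM (TMM-scaled, linear axis from 0) of the 10 genes in the 9 libraries, with a point per library and a bar for the mean and SD of 3 libraries. CCN2 stands highest in Kushen at 864 CPM, AXL steps from 534 CPM in CKI to 765 in Kushen and 1025 in Baituling, and AJUBA lies between 209 and 232 CPM in all libraries.

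None of the 10 genes passed both thresholds in any comparison, where 1.9% of all genes did so between CKI and Kushen, 19.1% between CKI and Baituling and 15.2% between Kushen and Baituling. The adjusted p alone was under 0.05 for 4 of the 10 between CKI and Kushen (39.8% of all genes), for 8 between CKI and Baituling (76.1%) and for 8 between Kushen and Baituling (71.6%). These shares lay near those of all genes. The 3 libraries of one treatment lay apart from the 3 of the other for 6, 9 and 8 genes in the same order, against 49.5%, 78.3% and 73.1% of all genes. The median size of the log2 fold change was 0.09, 0.27 and 0.365 over the 10 genes, and 0.17, 0.46 and 0.41 over all genes.

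**Figure D2:**
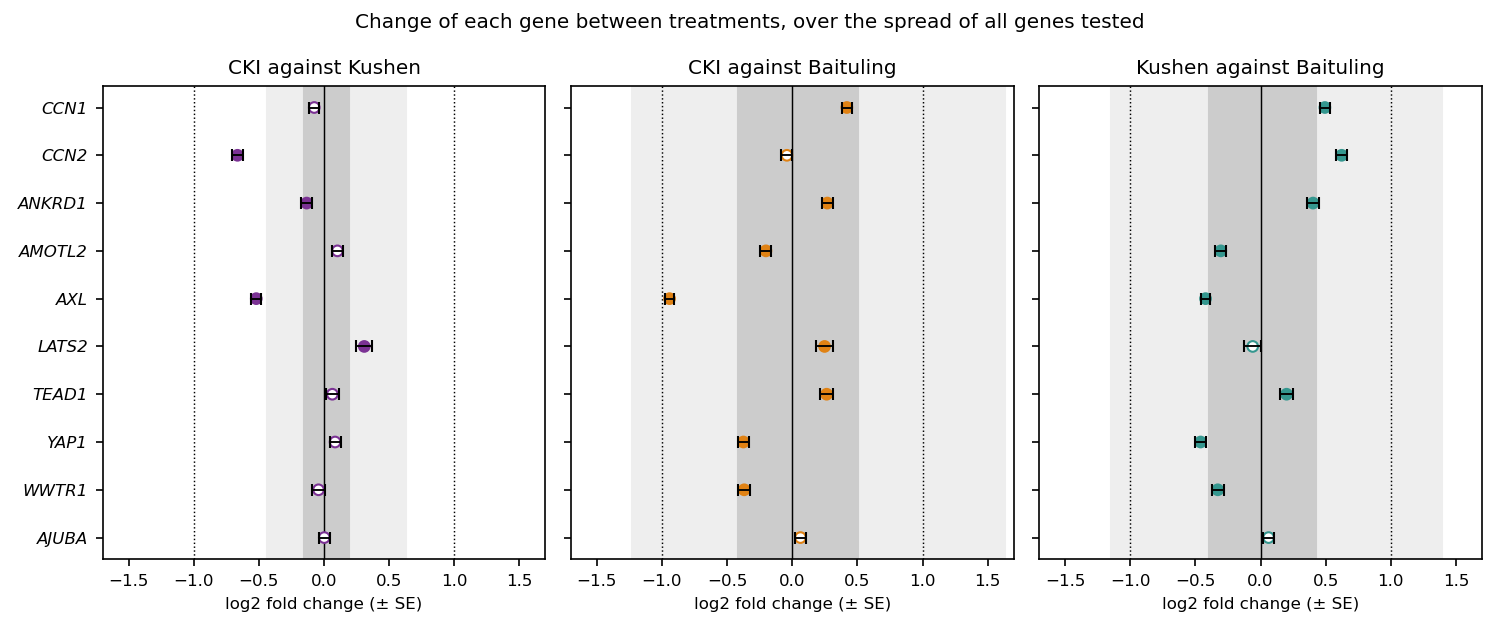
Log2 fold change with its SE for each of the 10 genes in the 3 comparisons, filled where the edgeR adjusted p was under 0.05. Dark and light grey bands hold the middle 50% and 90% of all 14195 genes and dotted lines mark -1 and 1; CCN2 (-0.66) and AXL (-0.52) in CKI against Kushen lie outside the light band.

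CCN2 (chromosome 6, 132269316 to 132272512, build GRCh37) encodes connective tissue growth factor, which modulates matrix and integrin signalling. Its level was 541, 531 and 564 CPM in the CKI libraries, 852, 866 and 875 CPM in the Kushen libraries and 534, 566 and 583 CPM in the Baituling libraries. Kushen stood above both other treatments without overlap, while CKI and Baituling overlapped. Compared with Kushen, CCN2 in CKI was thus lower, with a log2 fold change of -0.66 ± 0.04 (SE, edgeR adjusted p 5.73e-10), a change that 6.14% of all genes exceeded in size. In Kushen against Baituling it was higher by 0.62 ± 0.04 (adjusted p 7.78e-11), or 1.54-fold. Between CKI and Baituling the log2 fold change was -0.04 ± 0.04 (adjusted p 0.382), but 0.25 (adjusted p 1.34e-05) when library totals replaced TMM.

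CCN1 (chromosome 1, 86046444 to 86050272), formerly CYR61, encodes a secreted protein of the same family and is a standard readout of YAP activity. It had 2108, 2157 and 2271 CPM in CKI, 2270, 2262 and 2352 CPM in Kushen and 1666, 1604 and 1619 CPM in Baituling. All Baituling libraries lay below the other 6, and CKI overlapped Kushen. CCN1 was higher than in Baituling by 0.42 ± 0.04 in CKI (edgeR adjusted p 9.24e-09) and by 0.49 ± 0.04 in Kushen (adjusted p 1.07e-09), comparisons that share the Baituling libraries. In CKI against Kushen the log2 fold change was -0.07 ± 0.04 (adjusted p 0.141), and 0.00 under library totals.

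ANKRD1 (chromosome 10, 92671853 to 92680844), a nuclear ankyrin-repeat cofactor and YAP target, had 556, 558.5 and 562 CPM in CKI, 638, 603 and 598 CPM in Kushen and 494, 447 and 450 CPM in Baituling. The 3 treatments did not overlap, with Kushen highest and Baituling lowest. Against Baituling the gene rose by 0.27 ± 0.04 in CKI (edgeR adjusted p 1.72e-05) and by 0.40 ± 0.04 in Kushen (adjusted p 1.05e-07). The difference between CKI and Kushen was small, -0.13 ± 0.04 (adjusted p 0.0208). It was no longer past the threshold without CKI replicate 1 (adjusted p 0.0593), CKI replicate 2 (0.0672) or Kushen replicate 1 (0.0631), nor under library totals (-0.06, adjusted p 0.261).

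AXL (chromosome 19, 41725128 to 41767671), a receptor tyrosine kinase of the TAM family whose transcription YAP can raise, had the largest difference of the 10 genes. Its libraries read 524, 539 and 538 CPM in CKI, 742, 778 and 775 CPM in Kushen and 1036, 1030 and 1009 CPM in Baituling. The 3 treatments formed separate steps in that order. AXL was lower in CKI than in Baituling by a log2 fold change of -0.94 ± 0.04 (SE, edgeR adjusted p 2.68e-14), just inside the fold threshold, with 21.1% of all genes showing a larger change. It was lower in Kushen than in Baituling by -0.42 ± 0.04 (adjusted p 5.75e-09), and CKI against Kushen gave -0.52 ± 0.04 (adjusted p 5.19e-09). These directions were the same under the 4 ways of scaling.

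The coactivators YAP1 (chromosome 11, 101981178 to 102104155) and WWTR1 (chromosome 3, 149235022 to 149454501) were both highest in Baituling. YAP1 had 161, 162 and 157 CPM in CKI, 149, 155 and 149 CPM in Kushen and 200.1, 216 and 206 CPM in Baituling. Each Baituling library lay above all others, and each CKI library above each Kushen library. YAP1 was lower by -0.37 ± 0.04 in CKI (edgeR adjusted p 1.21e-07) and by -0.46 ± 0.04 in Kushen (adjusted p 8.29e-09), while CKI against Kushen gave 0.09 ± 0.04 (adjusted p 0.118), and 0.16 (adjusted p 0.00543) under library totals. WWTR1, which encodes TAZ, had 116, 114 and 116 CPM in CKI, 118, 124 and 114 CPM in Kushen and 146, 158 and 142 CPM in Baituling. The first 2 treatments overlapped and Baituling was apart. Against Baituling WWTR1 was lower by -0.37 ± 0.05 in CKI (adjusted p 7.31e-07) and by -0.33 ± 0.05 in Kushen (adjusted p 4.12e-06). Under library totals the CKI differences shrank to -0.09 for YAP1 (adjusted p 0.0663) and -0.08 for WWTR1 (adjusted p 0.117).

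TEAD1 (chromosome 11, 12695968 to 12966284) encodes a DNA-binding partner of both coactivators and moved the other way. It had 196, 191 and 191 CPM in CKI, 191, 190 and 172 CPM in Kushen and 150, 168 and 163 CPM in Baituling. CKI and Kushen overlapped and lay above Baituling. The rise over Baituling was 0.26 ± 0.05 in CKI (edgeR adjusted p 7.95e-05) and 0.20 ± 0.05 in Kushen (adjusted p 0.00135), and CKI against Kushen gave 0.06 ± 0.05 (adjusted p 0.314), and 0.14 (adjusted p 0.0354) under library totals.

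The inhibitory members differed from each other. AMOTL2 (chromosome 3, 134074189 to 134094321), an angiomotin that binds YAP, had 121.5, 124 and 126.5 CPM in CKI, 111, 119 and 116 CPM in Kushen and 143, 143 and 141 CPM in Baituling. Baituling was highest, with no overlap among the 3 treatments. AMOTL2 was lower than in Baituling by -0.31 ± 0.04 in Kushen (edgeR adjusted p 2.47e-06) and by -0.20 ± 0.04 in CKI (adjusted p 0.00024), the latter turning to 0.08 (adjusted p 0.0571) under library totals. In CKI against Kushen it gave 0.10 ± 0.04 (adjusted p 0.0582), which became 0.0469 with upper quartile scaling, 0.00127 with library totals, 0.032 with a minimum of 10 counts per library and 0.0463 without Kushen replicate 2. LATS2 (chromosome 13, 21547175 to 21635725), a kinase that phosphorylates YAP and TAZ, was highest in CKI. Its values were 61.5, 62.5 and 62.8 CPM in CKI, 48.3, 55.1 and 47.3 CPM in Kushen and 48.2, 57.1 and 52.1 CPM in Baituling. CKI lay above the other 6 libraries, which overlapped. LATS2 was higher in CKI by 0.31 ± 0.06 than in Kushen (adjusted p 0.000683) and by 0.25 ± 0.06 than in Baituling (adjusted p 0.00168). Kushen against Baituling gave -0.06 ± 0.07 (adjusted p 0.414), and 0.15 (adjusted p 0.0472) under library totals.

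AJUBA (chromosome 14, 23440386 to 23451760), a LIM-domain scaffold that restrains LATS, was the flattest of the 10. It had 220.1, 223 and 229 CPM in CKI, 222, 232 and 217 CPM in Kushen and 218, 216 and 208.5 CPM in Baituling. CKI lay narrowly above Baituling and Kushen overlapped both. Log2 fold changes were 0.00 ± 0.04 between CKI and Kushen, 0.06 ± 0.04 between CKI and Baituling and 0.06 ± 0.04 between Kushen and Baituling (edgeR adjusted p 0.98, 0.172 and 0.19). The near-zero first value took either sign under other settings. Against Baituling the gene passed the adjusted p threshold with library totals (0.35 in CKI and 0.27 in Kushen), with upper quartile scaling (0.13 in both) and with a minimum of 10 counts per library (0.11 in CKI and 0.09 in Kushen).

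The genes thus fell on both sides of Baituling. Of the 8 past the adjusted p in CKI against Baituling, 4 were higher and 4 lower, where 39.1% and 37% of all genes were so. Under library totals, which moved the median of all genes by 0.29, 6 were higher and 1 was lower (57% and 22.6% of all genes). In Kushen against Baituling 4 were higher and 4 lower (35.6% and 36.1% of all genes). Under library totals, with a median shift of 0.21, the numbers were 6 and 4 (50.6% and 24.6% of all genes). In CKI against Kushen 1 was higher and 3 were lower (19.6% and 20.2% of all genes). Under library totals, with a shift of 0.075, they were 4 and 2 (29.7% and 12.9% of all genes).

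**Figure D3:**
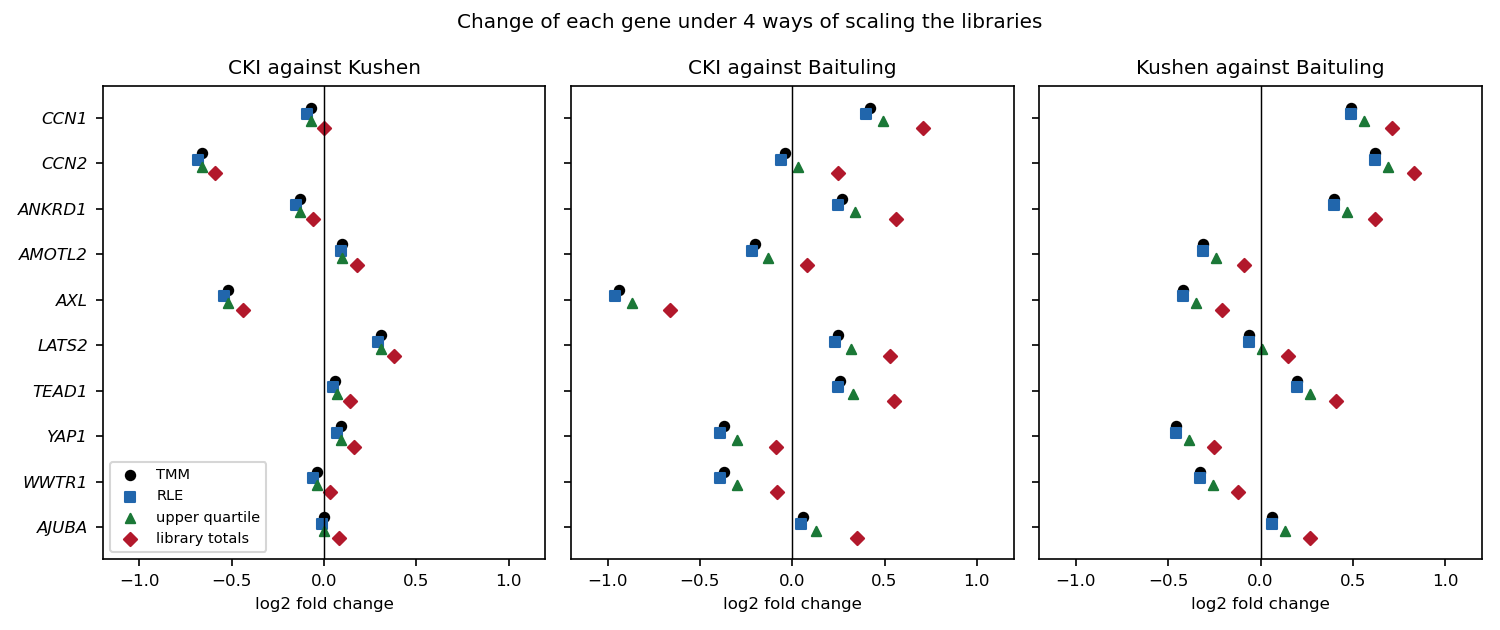
Log2 fold change of the 10 genes in the 3 comparisons with libraries scaled by TMM, RLE, upper quartile or library totals. Library totals move the values to the right in both comparisons with Baituling, by a median of 0.29 and 0.21 over all genes, and turn AMOTL2 in CKI against Baituling from -0.20 to 0.08, whereas AXL stays negative and CCN1 and ANKRD1 stay positive there.

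Because scaling moved several of these values, ratios between 2 genes of the same library were also taken, in which the scaling cancels. These 5 pairs were chosen after their values were seen. For CCN2 over CCN1 the mean log2 ratio of counts was -2.0 ± 0.03 with CKI, -1.41 ± 0.02 with Kushen and -1.54 ± 0.09 with Baituling (SD, n = 3). The ratio in CKI was lower than in Kushen by 1.5-fold, with no overlap between any 2 treatments. Relative to CCN1, CCN2 stood lower in CKI than in Baituling by -0.46 on the log2 scale. With TMM scaling CCN2 itself gave -0.04 in that comparison, and CCN1 gave 0.42. AXL over CCN1 ran from -2.03 ± 0.04 in CKI through -1.58 ± 0.04 in Kushen to -0.67 ± 0.03 in Baituling, a 2.57-fold difference between the first and the last.

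TEAD1 over YAP1 was 0.27 ± 0.03 in CKI, 0.29 ± 0.07 in Kushen and -0.37 ± 0.04 in Baituling, so that TEAD1 had more counts than YAP1 with CKI or Kushen and fewer with Baituling. The ratio differed by 1.56-fold between CKI and Baituling and by 1.58-fold between Kushen and Baituling. WWTR1 over YAP1 varied less, with -0.47 ± 0.04, -0.35 ± 0.04 and -0.48 ± 0.05 in the same order. ANKRD1 over CCN1 was -1.96 ± 0.05, -1.90 ± 0.07 and -1.81 ± 0.05. In exact two-sided permutation tests 11 of the 15 comparisons reached p = 0.1, the smallest that 3 against 3 libraries can give, which was 0.136 after Benjamini-Hochberg adjustment over the 15. These were the comparisons without overlap. The share of other gene pairs without overlap was not computed. Of single genes 49.5% did not overlap between CKI and Kushen, 78.3% between CKI and Baituling and 73.1% between Kushen and Baituling.

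**Figure D4:**
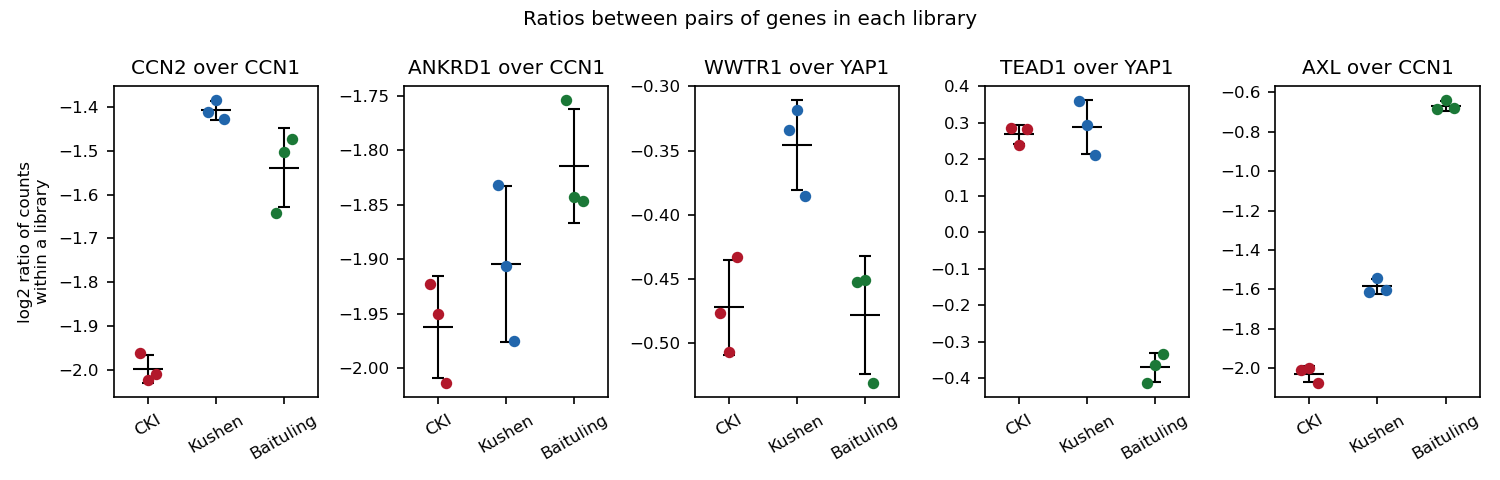
Log2 ratio of counts of 2 genes within each library, by treatment, with the mean and SD of 3 libraries; each panel has its own axis, which does not start at 0. CCN2 over CCN1 is lowest in CKI (-2.0), and TEAD1 over YAP1 is positive in CKI and Kushen and negative in Baituling (-0.37).

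Levels of different genes were compared per kilobase of the union of annotated exons. In CKI the order was CCN1 (589 CPM per kb), ANKRD1 (312), CCN2 (233), AXL (104), AJUBA (38.1), YAP1 (25.3), AMOTL2 (19.1), TEAD1 (18.0), WWTR1 (13.8) and LATS2 (11.1). Of the downstream targets, CCN1, ANKRD1, CCN2 and AXL thus stood above the coactivators and TEAD1. AMOTL2, also a target, lay below YAP1, and LATS2, both a kinase and a target, was last. In Kushen CCN2 (369.7) moved above ANKRD1 (342.5). In Baituling WWTR1 (17.8) stood above TEAD1 (15). Neighbours in the order whose libraries overlapped were AMOTL2 and TEAD1 in Kushen, and the gap was 1.08-fold between ANKRD1 and CCN2 in Baituling, with 249.8 against 249.3 CPM per kb for their nearest libraries.

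The closest profiles over the 9 libraries were looked up for CCN1, CCN2 and ANKRD1 among 11964 genes, as the root-mean-square difference of log2 CPM after centring each gene on its mean. NAAA (0.0308), NDRG3 (0.0361) and APP (0.0376) lay nearest to CCN1. CAT (0.0339), GLCE (0.0351) and ATP7B (0.0376) lay nearest to ANKRD1. Near CCN2 lay GPD1L (0.0706) and BPHL (0.0718), at a greater distance.

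Other genes of the pathway were described from 6 lists of 70 genes in all, by counts and medians. These lists too were chosen with earlier results of these data known. Among 16 further YAP-TEAD targets, all of which passed the filter on low counts, 12 were lower and 3 higher in CKI than in Baituling, beside 37% and 39.1% of all genes. Their median log2 fold change was -0.45, against 0.03 for all genes. In Kushen against Baituling 11 were lower and 2 higher (36.1% and 35.6% of all genes), with a median of -0.45 against 0.02. Under library totals 8 and 9 of the 16 were lower in these comparisons (22.6% and 24.6% of all genes). There 4 and 5 were higher (57% and 50.6%), and the medians were -0.16 and -0.24, against 0.32 and 0.23 for all genes. In CKI against Kushen 7 were lower and 3 higher (20.2% and 19.6% of all genes), with a median of -0.13 against 0.01. Under library totals 6 were lower and 5 higher (12.9% and 29.7% of all genes), with a median of -0.05 against 0.08.

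In each comparison with Baituling 4 of the 16 targets were past both thresholds, all of them lower than in Baituling. Of all 14195 genes 1592 were higher and 1123 lower past both thresholds in CKI against Baituling. The numbers were 1207 and 955 in Kushen against Baituling. FOXF2, a forkhead transcription factor, had a mean of 6.81 ± 0.438 CPM with CKI, 7.40 ± 1.02 with Kushen and 24.2 ± 1.69 with Baituling (SD, n = 3). Its log2 fold changes against Baituling were -1.83 ± 0.10 and -1.71 ± 0.10 (SE, edgeR adjusted p 1.66e-12 and 5.99e-12). FJX1, a secreted relative of the Drosophila four-jointed protein, changed by -1.67 ± 0.08 in CKI and -1.40 ± 0.08 in Kushen. The kinase gene NUAK2 changed by -1.13 in CKI and -1.55 in Kushen. IGFBP3, which binds insulin-like growth factors, passed in CKI (-1.15) and gave -0.65 in Kushen, and TGFB2, a TGF-beta ligand, passed in Kushen (-1.27) and gave -0.89 in CKI. Under library totals IGFBP3 (-0.86) and NUAK2 (-0.84) no longer passed the fold threshold in CKI. The stress gene GADD45A, named after its values were seen, stood 0.99 ± 0.05 above Kushen in CKI (adjusted p 9.32e-11), just inside the fold threshold, and 1.06 above under library totals. Against Baituling GADD45A gave 0.29 ± 0.05 in CKI and -0.70 ± 0.05 in Kushen.

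**Figure D5:**
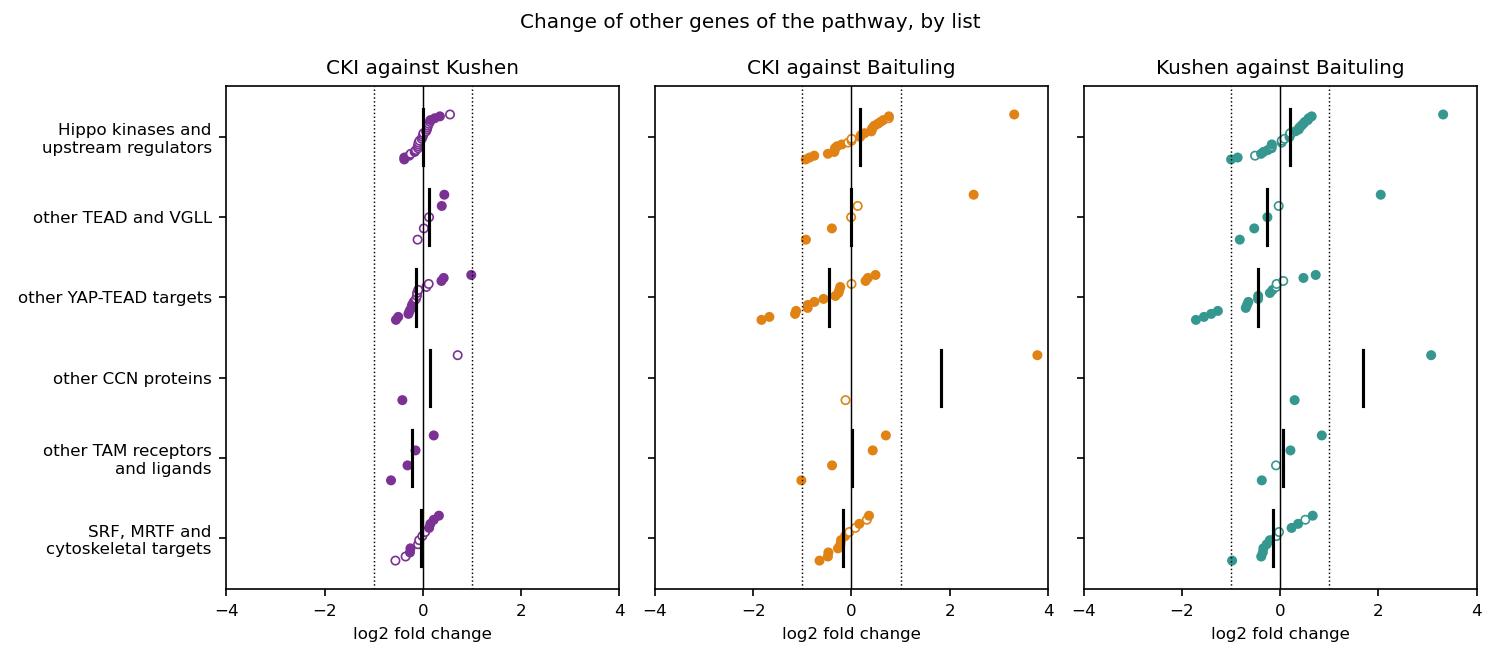
Log2 fold change of each gene of 6 lists that passed the filter on low counts, filled where the edgeR adjusted p was under 0.05, with a black bar at the list median. Other YAP-TEAD targets have medians of -0.45 in both comparisons with Baituling, against 0.03 and 0.02 for all genes. Under library totals their medians are -0.16 and -0.24, against 0.32 and 0.23. The points far to the right are AMOT, VGLL3 and CCN5.

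Hippo kinases and upstream regulators were 25 genes, all above the filter. Against Baituling 12 were higher and 9 lower in CKI (39.1% and 37% of all genes), with a median of 0.18 against 0.03 for all genes. In Kushen 12 were higher and 7 lower (35.6% and 36.1% of all genes), with a median of 0.19 against 0.02. Between CKI and Kushen 3 were higher and 4 lower (19.6% and 20.2% of all genes), with a median of 0.00 against 0.01. Under library totals the counts became 16 and 3 (57% and 22.6% of all genes), 15 and 4 (50.6% and 24.6%), and 7 and 3 (29.7% and 12.9%). AMOT, the founding angiomotin, was past both thresholds against Baituling, but it met the filter on low counts only through the CKI and Kushen libraries and was not tested with a minimum of 10 counts per library. It had 27 or 28 counts per CKI library, 21 to 30 per Kushen library and 0 to 3 per Baituling library, a ratio of 10.4 for CKI over Baituling (95% exact interval 4.58 to 29.1, counting error only). NF2, the upstream activator, was named after its values were seen. Its mean was 9.21 CPM with CKI, 8.33 with Kushen and 16.6 with Baituling. Against Baituling the log2 fold changes were -0.85 ± 0.08 in CKI and -0.998 ± 0.09 in Kushen (edgeR adjusted p 1.69e-08 and 2.89e-09). The Kushen value was just inside the fold threshold, and just outside it (-1.001) with RLE factors. It shrank to -0.93 with upper quartile scaling and -0.79 with library totals, where CKI gave -0.78 and -0.565.

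Of the other TEAD factors and the VGLL cofactors, which bind TEAD in place of YAP, 5 of 7 passed the filter. TEAD4 was lower than in Baituling by -0.93 ± 0.07 in CKI and -0.82 ± 0.07 in Kushen (edgeR adjusted p 7.43e-10 and 5.61e-09). TEAD2 was lower by -0.40 ± 0.07 and -0.53 ± 0.07, and TEAD3 gave -0.01 and -0.03. Under library totals TEAD2 gave -0.11 in CKI (adjusted p 0.114) and -0.32 in Kushen, TEAD3 turned to 0.28 and 0.18 (adjusted p 1.72e-05 and 0.00161), and TEAD4 gave -0.64 and -0.61. VGLL3 had 736 to 861 counts per CKI library, 467 to 629 per Kushen library and 102 to 116 per Baituling library. It rose over Baituling by 2.49 ± 0.11 in CKI and 2.05 ± 0.11 in Kushen (adjusted p 5.9e-14 and 2.69e-12). In CKI VGLL3 exceeded Kushen by 0.44 ± 0.08 and VGLL4 by 0.39 ± 0.07 (edgeR adjusted p 0.000329 and 0.000167). Against Baituling VGLL4 gave 0.13 ± 0.07 in CKI and -0.26 ± 0.07 in Kushen (edgeR adjusted p 0.0983 and 0.00287). Under library totals these VGLL4 values were 0.41 and -0.05.

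In the CCN family CCN3 and CCN5 passed the filter. CCN5 had 28 to 35 counts per CKI library, 15 to 25 per Kushen library and 0 to 4 per Baituling library, a ratio of 14.6 for CKI over Baituling (95% exact interval 6.04 to 45.9) and 8.87 for Kushen (3.58 to 28.4), intervals that cover counting error only. Like AMOT it met the filter through the CKI and Kushen libraries. CCN3 in CKI lay below Kushen by -0.42 ± 0.09 (edgeR adjusted p 0.00115), the direction that CCN2 took there. Of the receptors and ligands related to AXL, the ligand gene GAS6 followed the same steps as AXL. GAS6 had a mean of 262 CPM with CKI, 411 with Kushen and 531.5 with Baituling, and CKI against Baituling gave -1.02 ± 0.05 (adjusted p 1.06e-12). This lay inside the fold threshold with upper quartile scaling (-0.95), library totals (-0.73) or a stricter filter (-0.98). The receptor MERTK was higher than in Baituling by 0.70 ± 0.06 in CKI and 0.85 ± 0.06 in Kushen, and TYRO3 by 0.43 ± 0.06 and 0.21 ± 0.07. Under library totals MERTK passed the fold threshold in Kushen (1.06). The ligand PROS1 was lower in CKI than in Baituling by -0.395 ± 0.07, and gave -0.11 (adjusted p 0.16) under library totals.

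SRF and its MRTF coactivators also drive CCN1, CCN2 and ANKRD1, together with cytoskeletal genes. Of 14 genes of this list 12 passed the filter, and none passed both thresholds in any comparison. Of all genes 1.9% did so between CKI and Kushen, 19.1% between CKI and Baituling and 15.2% between Kushen and Baituling. In CKI 2 were higher and 7 lower than in Baituling (39.1% and 37% of all genes), with a median of -0.17 against 0.03 for all genes. In Kushen 3 were higher and 6 lower than in Baituling (35.6% and 36.1%), with a median of -0.14 against 0.02. Between CKI and Kushen 4 were higher and 2 lower (19.6% and 20.2%), with a median of -0.04 against 0.01. Library totals turned the 3 medians to 0.12, 0.07 and 0.03, against 0.32, 0.23 and 0.08 for all genes, with 5 higher and 3 lower (57% and 22.6% of all genes), 5 and 4 (50.6% and 24.6%), and 5 and 2 (29.7% and 12.9%).

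Of the 10 genes, 6 overlap a gene on the opposite strand (CCN2, AXL, LATS2, TEAD1, YAP1 and WWTR1). The library kit named in the labels, NEBNext Ultra RNA, does not mark strand and the counting setting is not given in the sources used here, so reads of such a pair may not be separated. CCN1, ANKRD1, AMOTL2 and AJUBA had no such overlap in the annotation used, though AMOTL2 and AJUBA overlap a gene on the same strand.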

How the data were processed

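MDA-MB-231 libraries were grouped by the treatment in their titles, 3 for each injection. The authors trimmed reads with Trim Galore 0.3.7, aligned them with STAR 2.5.3a to hg19 and deposited a table of raw counts per gene. The counting program and annotation are not given in the sources used here. The 222 repeated rows of an Ensembl gene, identical in counts, were dropped. Symbols, GRCh37 positions and exon lengths came from a GENCODE annotation lifted to that build, which is the assembly of hg19, and named 24224 of 24344 genes. Promoters came from RefSeq on GRCh38.p14, and no coordinate was converted.

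Genes were filtered with filterByExpr (minimum count 10, minimum total 15), which left 14195. All 9 libraries entered a single edgeR 4.0.16 quasi-likelihood fit in R 4.3.3 with group as the only term and TMM factors of 0.877 to 1.099. The code was tested on simulated data. DESeq2 1.42.0, other scalings, filters, fits and left-out libraries were tried as alternatives. The chi-square per gene between replicates was 1.70 to 6.85, above what counting error alone gives. That does not by itself establish separate libraries, and nothing states whether the replicates came from separate cultures. The p-values measure the spread between these libraries.

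The members and lists were chosen with earlier results of these data known. Genes named from a list were those past both thresholds in any comparison (at most 6 by size), and in lists of at most 7 genes every gene above the filter. The 3 nearest profiles were sought where log2 CPM averaged 1 or more, and 1 of them is not reported here. Comparisons of paralogous proteins were planned and not made, since protein sequences were not used here.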

Additional observations from a re-analysis of the deposited data

How the results depend on the processing

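The number of the 10 genes past both thresholds was 0 in the 3 comparisons under every alternative run, and the number past the adjusted p alone kept within 1.5 times of 4, 8 and 8. Library totals changed most, with 17 of 30 log2 fold changes keeping both direction and side of the threshold. There the values that changed sign in CKI against Kushen were CCN1 (0.00) and WWTR1 (0.03), in CKI against Baituling CCN2 (0.25) and AMOTL2 (0.08), and in Kushen against Baituling LATS2 (0.15). Upper quartile scaling turned CCN2 in CKI against Baituling to 0.03 and LATS2 in Kushen against Baituling to 0.01, and a minimum of 10 counts in every library turned CCN2 in CKI against Baituling to 0.00. AJUBA in CKI against Kushen went to -0.01 with RLE factors, DESeq2, no filter or the rows as deposited, and from -0.03 to 0.03 with single libraries left out. LATS2 in Kushen against Baituling went from -0.13 to 0.00 with single libraries left out.

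The 6 lists hold 70 genes, of which some lay below the filter. In CKI against Kushen 0 of them passed both thresholds, against 1.9% of all genes tested. The number was 1 under library totals and 0 to 2 with single libraries left out (1 without CKI replicate 2 and 2 without Kushen replicate 3). In CKI against Baituling 8 passed, against 19.1% of all genes tested. With at least 10 counts in every library 5 passed, where AMOT and CCN5 were not tested and GAS6 (-0.98) fell inside the fold threshold. Tested against a log2 fold change of 1, 0, 6 and 7 genes of the lists passed in CKI against Kushen, CKI against Baituling and Kushen against Baituling. The share of all genes that pass that test was not computed. Deviations of same-numbered libraries correlated between -0.075 and 0.123, and those of different-numbered libraries between -0.148 and 0.181. With 3 libraries per treatment these values cannot tell whether replicate numbers pair the libraries. With the replicate number as a block, 4, 8 and 8 of the 10 genes were past the adjusted p, as without it.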
